A study of Mus musculus with 6 samples.

Results

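Interferon-stimulated genes are the genes that cells switch on when an interferon binds its receptor. A list of 45 such mouse genes was followed through 6 colon arrays, with 1 probe set per gene, the one with the highest mean signal over the 6 arrays. Of the 45, 43 had a probe set annotated to that gene alone, out of 18193 genes measured in the series. Isg15 had a probe set only together with another gene symbol and Ifi44 had none under that symbol, so both were not analysed here. The members were separated by textbook knowledge into 30 that lean toward type I interferon, of which 28 were measured, and 15 that lean toward interferon-gamma, all measured. The split is not sharp, since 9 members are well known to respond to both.

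The tissue was colon of C57BL/6 mice aged 6 to 8 weeks, taken 24 h after ethanol had been given rectally. Mice were labelled as wild type (WT), as knockouts of GPR41 (gene Ffar3) or as knockouts of GPR43 (gene Ffar2), and 1 library labelled GPR43 KO did not have a low Ffar2 signal. These are receptors for short-chain fatty acids, the fermentation products of gut bacteria. Each genotype had 2 arrays and all had received ethanol, so the comparisons ask how the genotypes differ after the injection. Untreated colon was not analysed here. The labels do not say whether arrays are separate mice or pools, how much ethanol was given, or how the knockout alleles were made, and p-values therefore measure only the spread between these arrays.

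Type I interferons signal through a receptor pair and the kinases JAK1 and TYK2. Targets carry the interferon-stimulated response element (ISRE), which is bound by a complex that includes STAT2 and IRF9. Interferon-gamma acts through JAK1 and JAK2, and its targets carry the gamma-activated site (GAS). In the gut, type I targets are mostly antiviral proteins, and interferon-gamma targets include the GTPases that attack vacuoles of intracellular microbes, the immunoproteasome and the chemokines that attract T cells. IRF7 amplifies type I interferon production, and USP18 and SOCS proteins restrain the response.

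The promoters below are shown because they carry the letters through which both routes are known to act, in 7 members with large differences between arrays and in a chemokine and a transcription factor that behaved differently. They are RefSeq sequences of GRCm38.p6, written 5′ to 3′ on the gene's strand, with the position of the first and last base relative to the transcription start, and capitals mark a match to an ISRE core or a GAS core on either strand.
Ddx60 (chr8:61928020-61928086, + strand, -67 to -1): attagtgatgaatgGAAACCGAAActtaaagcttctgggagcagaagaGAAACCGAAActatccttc
Ifit1 (chr19:34640771-34640827, + strand, -118 to -62): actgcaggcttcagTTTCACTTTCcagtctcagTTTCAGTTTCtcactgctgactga
Ifit3 (chr19:34583359-34583430, + strand, -170 to -99): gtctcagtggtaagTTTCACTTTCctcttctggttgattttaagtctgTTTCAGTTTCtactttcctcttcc
Oas3 (chr5:120777711-120777748, - strand, -89 to -52): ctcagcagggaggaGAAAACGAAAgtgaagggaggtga
Gbp3 (chr3:142559985-142560028, + strand, -59 to -16): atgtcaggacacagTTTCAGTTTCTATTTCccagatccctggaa
Lgals9 (chr11:78984956-78984993, - strand, -69 to -32): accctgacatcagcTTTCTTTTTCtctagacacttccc
Igtp (chr11:58199497-58199545, + strand, -59 to -11): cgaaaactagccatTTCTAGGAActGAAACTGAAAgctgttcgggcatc
Cxcl10 (chr5:92349079-92349116, - strand, -227 to -190): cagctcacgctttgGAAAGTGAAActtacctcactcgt
Irf1 (chr11:53769910-53769946, + strand, -104 to -68): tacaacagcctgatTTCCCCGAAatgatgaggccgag

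The ISRE core was searched as GAAANNGAAA (TTTCNNTTTC on the other strand) and the GAS core as TTCNNNGAA, which reads the same on both strands, in the 250 bases before each start. Of 33 members with a promoter in the RefSeq table, 17 held an ISRE core. Over their promoter windows the share was 44.7%, against 2.98% of all 32851 windows of that length. An ISRE core stood before 9 of 19 type I leaning and 8 of 14 interferon-gamma leaning members. The GAS core was found before 8 of 33 members, 21.1% of their windows against 7.02% of all windows. It stood before 3 of 19 type I leaning and 5 of 14 interferon-gamma leaning members. ISRE matches were thus present in both classes. In Gbp3, Bst2, Oas1a and Irgm1 matches overlapped each other. These are descriptions of letters in a window, and binding was not measured.

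**Figure D1:**
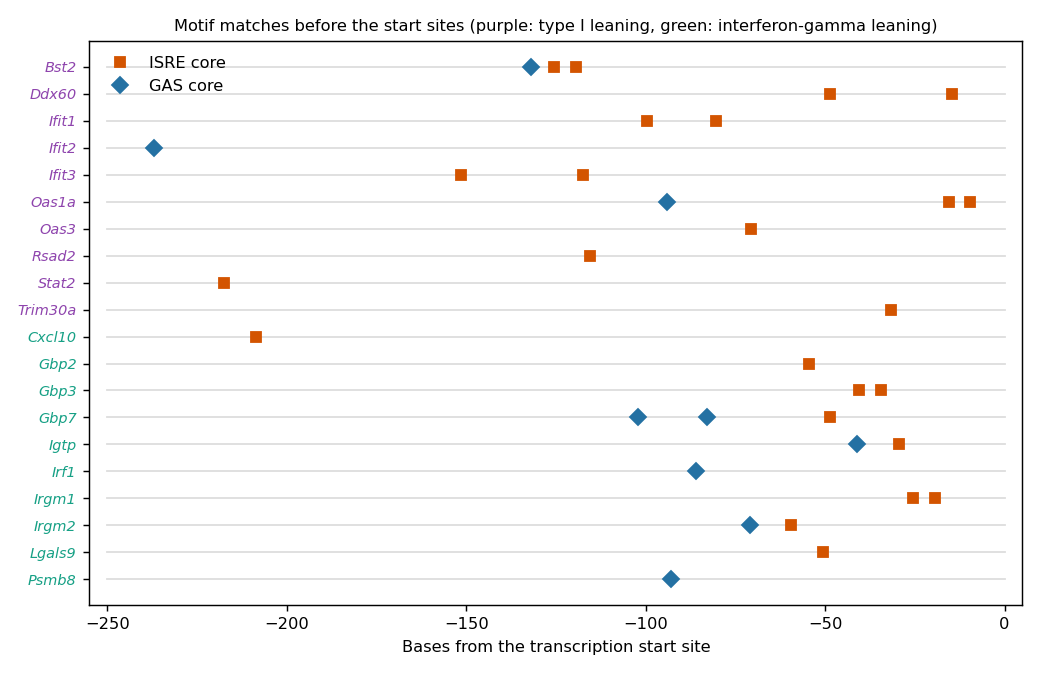
Positions of ISRE core matches (orange squares) and GAS core matches (blue diamonds) in the 250 bases before the start of the members that hold any. The horizontal axis is the distance from the transcription start in bases, and type I leaning names are purple and interferon-gamma leaning names green. ISRE matches occur in both classes.

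All values are MAS5 signals, linear and already scaled to an equal mean per array, or log2(signal + 18). The median probe set signal ranged from 80.9 to 96.8 and the 3′ to 5′ ratio of Gapdh from 0.778 to 0.858. Ffar2 had signals of 1194 and 1118 in WT, 1857 and 1933 in GPR41 KO, and 1598 and 189 in GPR43 KO, so the library labelled GPR43 KO replicate 1 did not show the low Ffar2 signal of GPR43 KO replicate 2. Ffar3 was not checked here. Markers of colon epithelium were high throughout, with a summed signal of their 11 genes from 219320 to 342290. Some members sit side by side in the genome (GRCm38.p6). Ifit2, Ifit3 and Ifit1 lie within chr19:34550550-34650009, Gbp7, Gbp3 and Gbp2 within chr3:142530336-142638008, and Psmb9, Tap1 and Psmb8 within chr17:34182030-34201454, so that members are not independent of each other. Neutrophil markers summed to 75558 and 134110 in WT and to between 887 and 3164 in the 4 KO arrays. By limma, 8 of 8 tested markers were lower in each KO group. Among all tested genes, 3.11% were lower in GPR41 KO and 2.41% in GPR43 KO. In bulk tissue, fewer cells of a type and less RNA per cell cannot be told apart.

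The interferon-stimulated genes set 1 array apart from its own replicate. GPR41 KO replicate 2 was the highest of the 6 arrays for 42 of 43 members, which were 28 of 28 type I leaning and 14 of 15 interferon-gamma leaning ones. Over all 18193 genes, 14.2% were highest in that array. The exception was the chemokine gene Cxcl10, highest in WT replicate 2. Measured against the WT mean, the median member stood at -0.23 and 0.23 in the WT arrays, -0.26 and 1.44 in GPR41 KO, and -0.11 and -0.52 in GPR43 KO, on the log2 scale. For all genes these medians lay between -0.042 and 0.036. By this median, GPR41 KO replicate 1 lay close to WT replicate 1, and GPR41 KO replicate 2 lay above both WT arrays. The differences of members between GPR41 KO and WT are given below with and without GPR41 KO replicate 2.

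**Figure D2:**
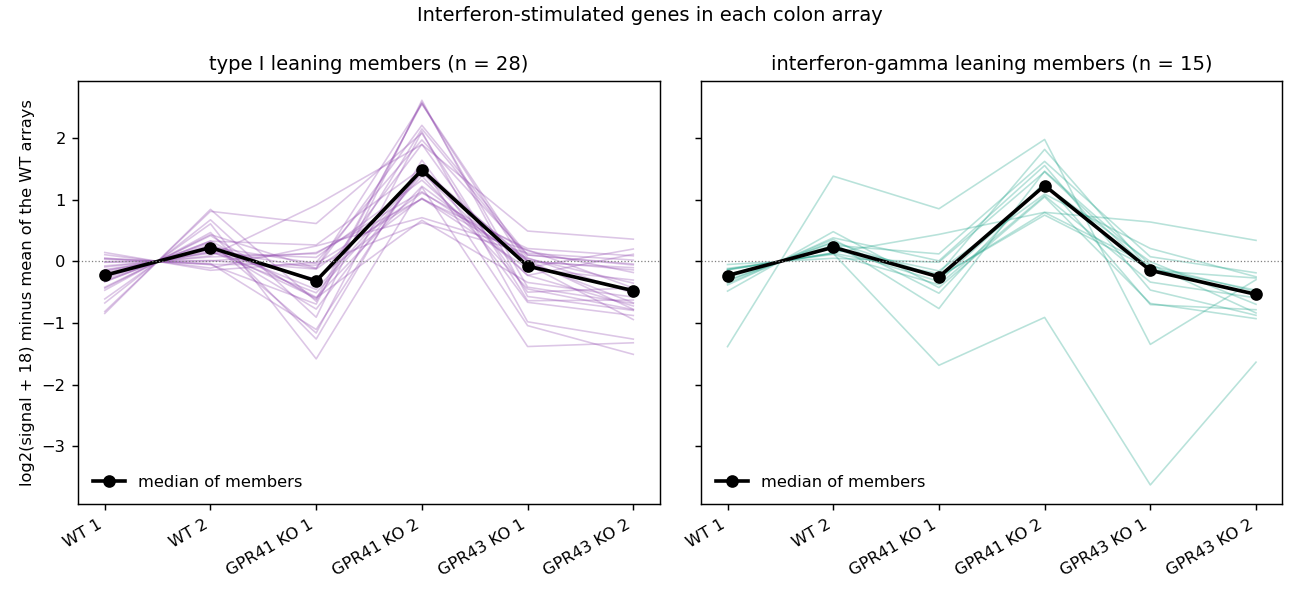
Each thin line joins the values of 1 member over the 6 arrays, as log2(signal + 18) minus its mean in the WT arrays, for 28 type I leaning (left) and 15 interferon-gamma leaning members (right), and the black points are the medians. In both classes the median peaks in GPR41 KO replicate 2, at 1.48 and 1.23, and the lowest line on the right is Cxcl10.

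Genes that stood out in a single array were counted in each array by the same rule, a log2 signal at least 1 above every other array. In GPR41 KO replicate 2 they were 29 of 10916 tested genes (0.266%). Of these 29, 23 were members, which is 79.3% of the genes and 59.0% of the 39 tested members. WT replicate 2 had 48 such genes, WT replicate 1 had 5, GPR41 KO replicate 1 had 2 and each GPR43 KO array had 1, and 0 of them were members. The other 6 genes in GPR41 KO replicate 2, named after their values were seen, were Gzma, Gbp6, Trim30d, Ifit1bl1, Ifi27l2b and Phf11d. Gbp6, Ifit1bl1 and Phf11d stood on the list of further interferon-induced genes, and Gzma, which encodes the granule protease granzyme A of T and NK cells, on that of T and NK cell markers. The filter for tested genes used the mean of all 6 arrays, so a weak gene can pass through the array where it is high. Gbp3, Oas3 and Dhx58, weak in other arrays, were counted among the 23 in this way. Their mean log2 signal over the other 5 arrays lay below the mean over 6 arrays of Mx1, which did not pass the filter. Without the filter, 24 of 43 members stood at least 1 above every other array in GPR41 KO replicate 2. The share of all genes without the filter is not given here, and 0.266% holds for tested genes only.

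Differences between the 2 arrays of a genotype show how much the members vary between arrays with the same label. In GPR41 KO, replicate 2 exceeded replicate 1 in 43 of 43 members, with a median difference of 1.502 and a range from 0.36 (Irf1) to 3.52 (Usp18) on the log2 scale. The median was 1.90 for type I leaning and 1.47 for interferon-gamma leaning members, against 0.036 for all genes. In WT, replicate 2 was higher in 38 of 43 members, with a median of 0.46, while 54.6% of all genes were higher in it. In GPR43 KO, where Ffar2 itself was not low in replicate 1 and low in replicate 2, the order was the other way: replicate 2 was higher in 7 of 43 members, with a median of -0.26, against 47.0% of all genes. With GPR41 KO replicate 2 set aside, WT replicate 2 was the highest of 5 arrays in 33 of 43 members, against 26.5% of all genes. GPR43 KO replicate 2 was the lowest of 6 in 23 of 43, against 15.0%.

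**Figure D3:**
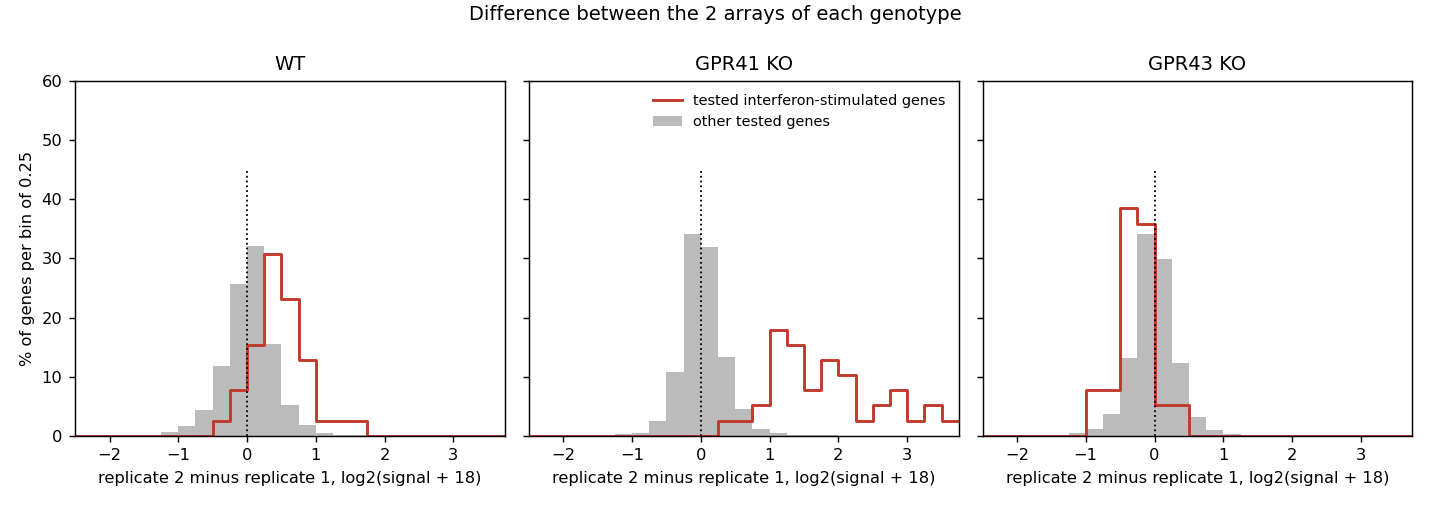
Replicate 2 minus replicate 1 within each genotype, in log2(signal + 18), as the percentage of genes per bin of 0.25, for the 39 tested members (red line) and the other tested genes (grey bars). In GPR41 KO all tested members lie to the right of 0, and in WT most do, while in GPR43 KO most lie to its left.

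Among the transcription factors, Irf7 was the member whose genotype difference was called. Its signals were 1522 and 1729 in WT, 3075 and 6096 in GPR41 KO, and 2291 and 2089 in GPR43 KO. Both GPR41 KO arrays lay above all others, and the groups did not overlap. Irf1, an early interferon-gamma target, had 2260 and 2745 in WT, 3381 and 4343 in GPR41 KO, and 3888 and 3160 in GPR43 KO. Both KO groups lay above WT without overlap. Irf9, the DNA-binding subunit of the type I complex, had 485 and 659.7 in WT, 369 and 909.7 in GPR41 KO, and 443 and 373 in GPR43 KO. Its GPR41 KO arrays were the highest and the lowest of the 6, the latter close to GPR43 KO replicate 2. Stat2 was at 452 in GPR41 KO replicate 2 and between 174 and 227 in the other arrays.

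The sensors of viral nucleic acids include the helicases Ifih1 (MDA5) and Dhx58 (LGP2), the helicase-like Ddx60, and Zbp1, a receptor for Z-form nucleic acids. Ddx60 signals were 248 and 229 in WT, 140.3 and 1518 in GPR41 KO, and 174 and 142 in GPR43 KO. The GPR41 KO arrays were the lowest and the highest of the 6, the former close to GPR43 KO replicate 2. Dhx58 had 199 and 189 in WT, 80.3 and 600.2 in GPR41 KO, and 84.6 and 56.3 in GPR43 KO. Zbp1 reached 1615 in GPR41 KO replicate 2 and lay between 329 and 691 elsewhere. Ifih1 had the smallest spread of these sensors, with 1603 and 1618 in WT, 1780.4 and 3264 in GPR41 KO, and 1864 and 1715 in GPR43 KO.

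Antiviral effectors were the largest class of members, 13 genes, and in 12 of them GPR41 KO replicate 2 stood at least 1 above every other array on the log2 scale. Ifit1, which binds viral RNA lacking cap methylation, had 597 and 1083 in WT, 518 and 4845 in GPR41 KO, and 798 and 498 in GPR43 KO. Ifit2 and Ifit3, its partners, reached 659.7 and 1762 in GPR41 KO replicate 2, and their other arrays spanned 110.4 to 149 and 205 to 391. The range of the other 5 arrays was in each case below the gap to that array. Oasl2, an oligoadenylate synthetase-like protein, had 709.7 and 1097 in WT, 384 and 3861 in GPR41 KO, and 438 and 357 in GPR43 KO. Oas1a, which makes the oligoadenylates that activate RNase L, had 2819 and 3402 in WT, 3239.9 and 7759 in GPR41 KO, and 2643 and 3358 in GPR43 KO. Apart from GPR41 KO replicate 2, the Oas1a arrays of the 3 genotypes overlapped. Rsad2, encoding viperin, had 393 and 1309 in WT, 453 and 3266 in GPR41 KO, and 751 and 497 in GPR43 KO. Bst2, the tether that holds budding virus to the cell, reached 2203 in GPR41 KO replicate 2 against 476 to 947 elsewhere. Mx1 was the exception with a gap of 0.46, and its signals ran from 71.96 to 180.4. Mx2 was near background in the other arrays, from 16.5 to 88.5, and reached 239 in GPR41 KO replicate 2.

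**Figure D4:**
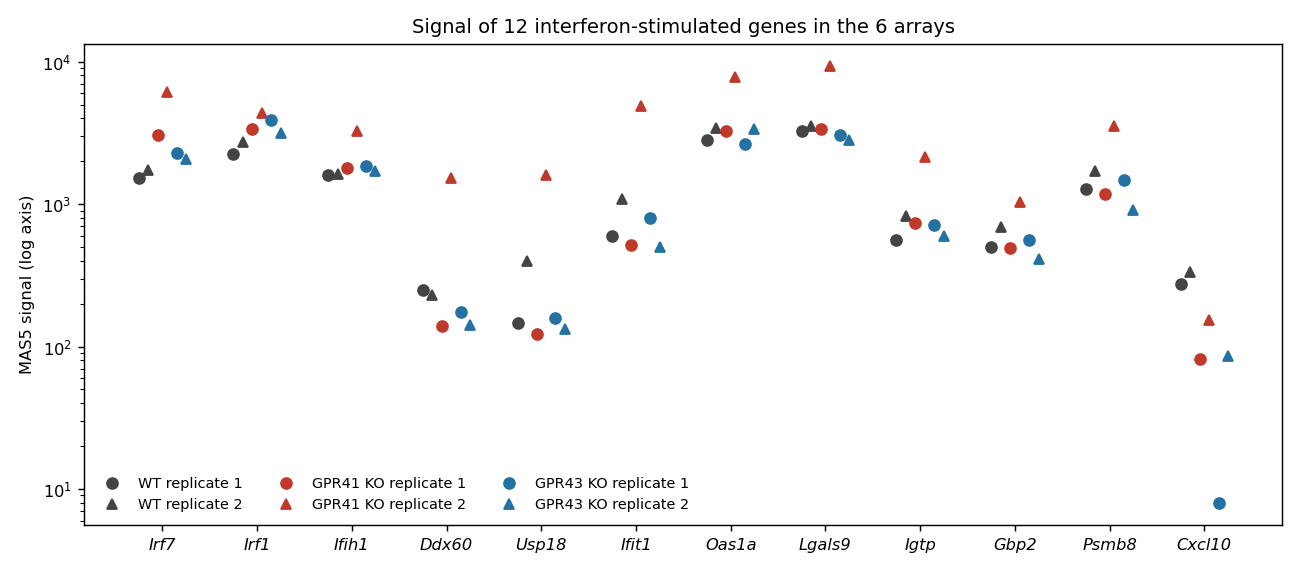
MAS5 signals of 12 members on a log axis, with circles for replicate 1 and triangles for replicate 2, in WT (grey), GPR41 KO (red) and GPR43 KO (blue). GPR41 KO replicate 2, the red triangle, is the top point for 11 of them, and Cxcl10 is the exception.

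Usp18 encodes the protease that removes ISG15 and blocks the type I receptor. Its signals were 146 and 400.4 in WT, 122 and 1589 in GPR41 KO, and 158 and 133 in GPR43 KO. This was the largest difference between GPR41 KO arrays of any member, 3.52 on the log2 scale, and WT replicate 2 was also above WT replicate 1, by 1.35. Of 6 further type I leaning members, Rtp4, a receptor-transporting protein, had 904 and 1747 in WT, 514 and 3969.9 in GPR41 KO, and 787 and 676 in GPR43 KO. Trim30a, a TRIM protein, had 432 and 1031 in WT, 211 and 1566 in GPR41 KO, and 246 and 257 in GPR43 KO. In both genes, WT replicate 2 was the second highest array. Epsti1 varied least of the 6, with 1624 and 1518 in WT, 1504 and 2436 in GPR41 KO, and 1723 and 1593 in GPR43 KO. Parp9, Parp14 and Xaf1 differed by 1.05, 1.31 and 1.80 between the GPR41 KO arrays.

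Lgals9, encoding galectin-9, and Lgals3bp, a secreted galectin-binding protein, behaved alike. Lgals9 had 3278 and 3519 in WT, 3365 and 9344 in GPR41 KO, and 3067 and 2813 in GPR43 KO. Lgals3bp had 3872 and 4286 in WT, 4445 and 8944 in GPR41 KO, and 4109 and 3700 in GPR43 KO. In 5 arrays each gene stayed within a narrow band, and the sixth array lay far above it.

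The immunity-related GTPases, which are recruited to the vacuoles of intracellular microbes, are the best known interferon-gamma targets of the mouse. Igtp (Irgm3) had 564 and 819 in WT, 741 and 2133 in GPR41 KO, and 717 and 595 in GPR43 KO. Iigp1 had 351 and 702 in WT, 366 and 1047 in GPR41 KO, and 303 and 252 in GPR43 KO. Both Iigp1 arrays of GPR43 KO lay below all others. Differences between the GPR41 KO arrays were alike over the 5 GTPase genes, from 1.45 (Irgm1) to 1.81 (Irgm2). The guanylate-binding protein Gbp2 had 500.3 and 695 in WT, 490.2 and 1036 in GPR41 KO, and 563 and 414 in GPR43 KO. Its other probe set was highest in WT replicate 2 instead, with 304 and 751 in WT and 517 and 692 in GPR41 KO. Gbp3 reached 489.7 in GPR41 KO replicate 2 and lay between 81.3 and 139.9 elsewhere, while Gbp7 differed by 1.003 between the GPR41 KO arrays.

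Antigen processing genes were highest in GPR41 KO replicate 2 and next highest in WT replicate 2. Psmb8, an immunoproteasome subunit, had 1284 and 1719 in WT, 1181 and 3512 in GPR41 KO, and 1482 and 909 in GPR43 KO. Tap1, a chain of the peptide transporter that loads MHC class I, had 449 and 695 in WT, 321 and 1575 in GPR41 KO, and 539 and 305 in GPR43 KO. Psmb9 reached 2188 in GPR41 KO replicate 2 against 851 to 1186 elsewhere. In all 3 genes WT replicate 2 exceeded WT replicate 1.

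Of the chemokines that recruit T cells through CXCR3, Cxcl9 shared these top 2 arrays and Cxcl10 did not. Cxcl10 had 276 and 334 in WT, 81.9 and 153 in GPR41 KO, and 7.96 and 85.5 in GPR43 KO. All 4 KO arrays lay below both WT arrays, as those of the neutrophil markers did, and the part of those cells was not tested. Cxcl9 had 3.78 and 130.5 in WT, 84.9 and 206 in GPR41 KO, and 4.35 and 28.3 in GPR43 KO, and its WT arrays spanned nearly its whole range. Mx1, Mx2, Cxcl9 and Cxcl10 were under the filter on weak signals and were not tested, so their differences of group means carry no p. For Cxcl10 these were -1.30 in GPR41 KO and -2.63 in GPR43 KO against WT, and for Cxcl9 1.42 and -0.82, on the log2(signal + 18) scale. Without GPR41 KO replicate 2, the GPR41 KO differences were -1.69 for Cxcl10 and 0.85 for Cxcl9.

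GPR41 KO was compared with WT by limma over 10916 tested genes, with Benjamini-Hochberg adjustment. Of the 39 tested members 1 was called, Irf7, which rose by 1.41 ± 0.27 on the log2 scale (SE, 2 arrays per group, adjusted p = 0.0193). Among all tested genes 4.96% were called, 1.85% higher and 3.11% lower. At an unadjusted p under 0.05 there were 5 members, Irf7, Irf1, Ifih1, Lgals3bp and Oasl1, against 19.5% of all tested genes. The 2 groups were separated in 4 members, with GPR41 KO the higher one, against 24.6% of all tested genes, and in 0 members with GPR41 KO the lower one, against 25.3%. The Irf7 call held without GPR41 KO replicate 2, at 0.92 and an adjusted p of 0.0358, and was lost without the intensity trend of the limma fit (adjusted p = 0.0668). Over its alternatives the adjusted p ran from 0.000813 to 0.0668.

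The other members did not pass the limma test, and their errors show the gap between the GPR41 KO arrays. Irf1 differed by 0.62 ± 0.17 (adjusted p = 0.0818), Ifih1 by 0.58 ± 0.24 (0.229) and Lgals3bp by 0.63 ± 0.27 (0.244). Without GPR41 KO replicate 2 these were 0.44, 0.14 and 0.13. For Ifit1 the difference was 0.97 ± 0.81 (0.570) and for Usp18 0.85 ± 0.93 (0.668). Without GPR41 KO replicate 2 these turned to -0.62 and -0.91. Oas1a differed by 0.69 ± 0.34 (0.305) and Igtp by 0.87 ± 0.41 (0.288), and without that array by 0.065 and 0.12. Gbp2 had 0.27 ± 0.33 (0.708), Psmb8 0.45 ± 0.44 (0.629), Iigp1 0.31 ± 0.46 (0.759) and Epsti1 0.28 ± 0.21 (0.503). Without it these 4 lay at -0.26, -0.33, -0.43 and -0.061. The median difference was 0.54 for type I leaning and 0.45 for interferon-gamma leaning members, against -0.014 for all genes. Without GPR41 KO replicate 2 the medians were -0.32 and -0.25, and without GPR41 KO replicate 1 they were 1.48 and 1.23. Either way a single GPR41 KO array is left against the WT arrays. Without GPR41 KO replicate 1 it is replicate 2, already singled out as the highest array in 42 of 43 members. Calls of members in that fit can follow from this selection alone, so their count cannot show a genotype difference. Without GPR41 KO replicate 1, 14 of the 39 tested members were called, against 1.79% of all tested genes.

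**Figure D5:**
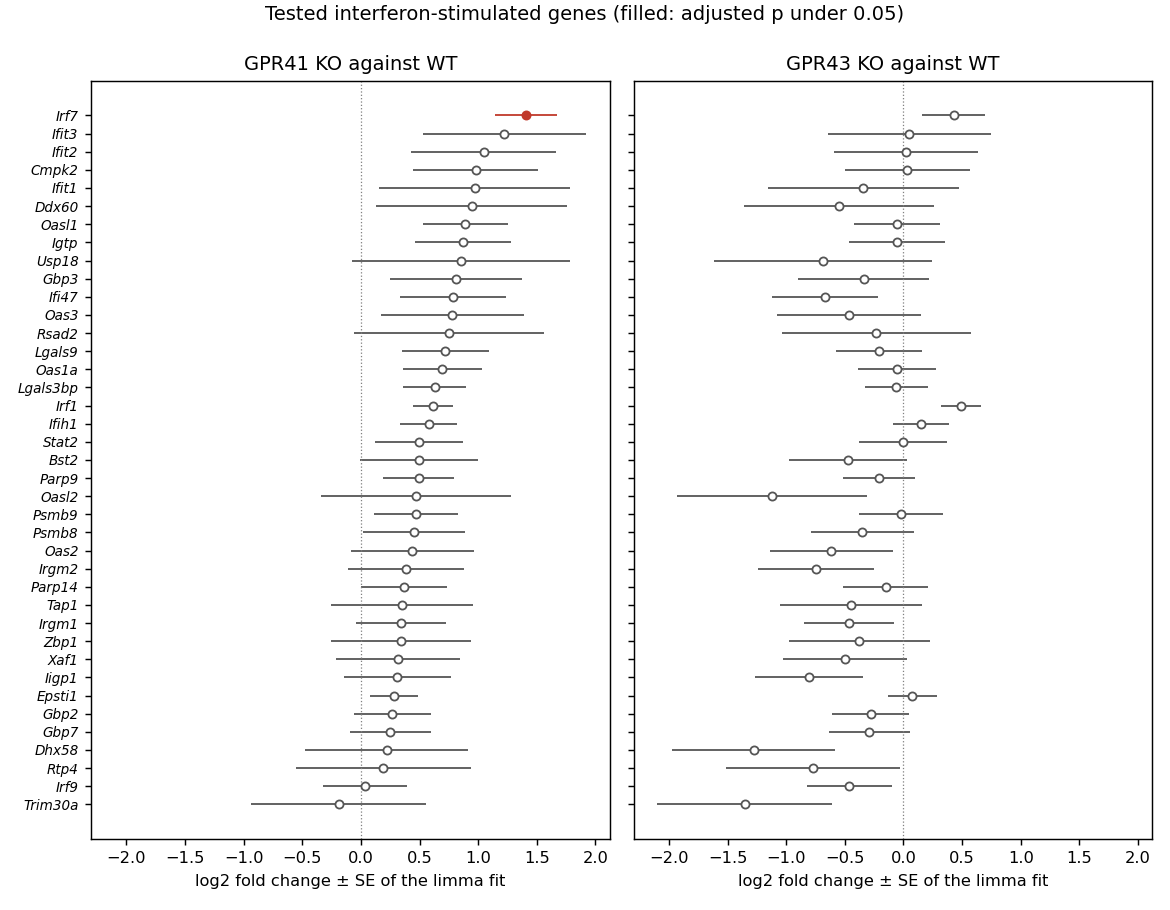
Log2 fold changes of the 39 tested members, with the standard error of the limma fit as bars, for GPR41 KO against WT (left) and GPR43 KO against WT (right), ordered by the left panel. Irf7 on the left is the only filled point, at 1.41, and stands for an adjusted p under 0.05.

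Compared with WT, GPR43 KO had 0 of 39 tested members called by limma, while 3.96% of all tested genes were called, 1.55% higher and 2.41% lower. Irf1 was the only member with an unadjusted p under 0.05, at 0.49 ± 0.17 (adjusted p = 0.157), against 20.0% of all tested genes. Irf7 differed by 0.43 ± 0.27 (0.420), Ifih1 by 0.15 ± 0.24 (0.777) and Epsti1 by 0.077 ± 0.21 (0.878). Iigp1 differed by -0.81 ± 0.46 (0.370), Usp18 by -0.68 ± 0.93 (0.732), Psmb8 by -0.35 ± 0.44 (0.705), Ifit1 by -0.34 ± 0.81 (0.860) and Gbp2 by -0.28 ± 0.33 (0.686). Oas1a, Lgals3bp and Igtp lay at -0.056, -0.063 and -0.055. The limma fit pooled the spread of all groups, so the errors in this comparison also carry the gap between the GPR41 KO arrays. Both GPR43 KO arrays lay below both WT arrays in 14 members, against 22.9% of tested genes, and above them in 3, against 27.7%. The median was -0.29 for type I leaning and -0.35 for interferon-gamma leaning members, against 0.022 for all genes. Without the library labelled GPR43 KO replicate 1, whose Ffar2 signal was not low, these were -0.48 and -0.54, and without GPR43 KO replicate 2 they were -0.076 and -0.15.

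Between the KO groups, 0 of 39 tested members and 0% of all tested genes were called by limma. At an unadjusted p under 0.05 there were 8 members, all lower in GPR43 KO, against 5.46% of all tested genes. Both GPR43 KO arrays lay below both GPR41 KO arrays in 10 members, against 14.8% of all tested genes, and above them in 0, against 23.1%. The median was -0.97 for type I leaning and -0.93 for interferon-gamma leaning members, and without GPR41 KO replicate 2 it was 0.066 and -0.14. With 2 arrays against 2, the smallest p of an exact two-sided permutation test is 0.333, so a single value could not pass on its own.

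The interferon ligands that were measured were weak in all arrays. Of 19 listed, 10 had a probe set and 0 passed the filter on weak signals. The 10 were type I interferon genes and Ifng, so interferon-lambda ligands were not measured here. No ligand exceeded a signal of 118 in any array, which Ifnz reached in WT replicate 2. Ifnb1 had 17.9 and 3.36 in WT, 26.1 and 6.53 in GPR41 KO, and 54.6 and 5.35 in GPR43 KO, and Ifng lay between 5.32 and 34.1. GPR41 KO replicate 2 was the highest array in 3 of the 10, against 14.2% of all genes. In Ifna9, named after its values were seen, it had 63.1 and the other arrays 4.21 to 19.5. A MAS5 signal near background does not show that a gene was off. All 6 receptor genes, Ifnar1, Ifnar2, Ifngr1, Ifngr2, Ifnlr1 and Il10rb, were tested and 0 were called in either comparison with WT. Among all tested genes, 4.96% were called in GPR41 KO and 3.96% in GPR43 KO. Of the kinases, STATs and other interferon regulatory factors 8 were tested and 0 called, and Stat3 had differences of -0.50 ± 0.16 (limma adjusted p = 0.129) in GPR41 KO and -0.69 ± 0.16 (0.0522) in GPR43 KO.

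Inhibitors of interferon signalling included calls in both KO groups. Of 6 tested, 2 fell in GPR41 KO, against 3.11% of all tested genes. In GPR43 KO 1 fell and 1 rose, against 2.41% and 1.55%. Socs3, an inhibitor of JAK kinases, had 1500 and 2996 in WT, 256 and 205 in GPR41 KO, and 419.8 and 255 in GPR43 KO. It fell by 3.11 ± 0.33 in GPR41 KO (limma adjusted p = 0.00167) and fell by 2.63 ± 0.33 in GPR43 KO (0.00437). Ptpn6, a phosphatase of blood cells, fell by 0.88 ± 0.20 in GPR41 KO (0.0438). Irf2bp2, a corepressor, rose by 0.90 ± 0.16 in GPR43 KO (0.0165). Socs3 fell in both KO groups, as the neutrophil markers did. Ptpn6 was not called in GPR43 KO, at -0.39 ± 0.20 (limma adjusted p = 0.323). The part of neutrophils in the differences of Socs3 and Ptpn6 was not tested. Of 9 tested sensors and adaptors, 1 was called in GPR43 KO, against 3.96% of all tested genes, and 0 in GPR41 KO, against 4.96%. The call was Myd88, the adaptor of Toll-like receptors, which fell by 0.84 ± 0.19 in GPR43 KO (limma adjusted p = 0.0437).

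A further 60 interferon-induced genes with a probe set showed the array pattern in weaker form. GPR41 KO replicate 2 was the highest array in 40 of the 60, against 14.2% of all genes. Its median difference from GPR41 KO replicate 1 was 0.54, against 0.036 for all genes. Of 46 tested, 1 rose and 3 fell in GPR41 KO, and 1 rose and 4 fell in GPR43 KO. Among all tested genes 1.85% rose and 3.11% fell in GPR41 KO, and 1.55% and 2.41% in GPR43 KO. Ido1, which degrades tryptophan, had 122 and 104.9 in WT, 368 and 394 in GPR41 KO, and 245 and 321 in GPR43 KO. It rose by 1.603 ± 0.24 in GPR41 KO (limma adjusted p = 0.00628) and by 1.18 ± 0.24 in GPR43 KO (0.0291), and its GPR41 KO arrays were close together. The antiviral membrane proteins Ifitm1, Ifitm2 and Ifitm3 fell, with log2 changes of -2.38, -0.91 and -1.26 in GPR41 KO and of -2.06, -0.79 and -1.12 in GPR43 KO. Slfn2, a Schlafen protein of immune cells, fell by 2.58 ± 0.50 in GPR43 KO (0.0265). Ifitm1 signals were 7995 and 12599 in WT and 1522 to 3197 in the KO arrays. Like the neutrophil markers, Ifitm1, Ifitm2, Ifitm3 and Slfn2 were lower in every KO array than in both WT arrays. Among the KO arrays, Ifitm1, Ifitm2 and Ifitm3 were highest in GPR43 KO replicate 1, at 3197, 10771 and 6908. The neutrophil sum of the KO arrays was also highest there, at 3164. Slfn2 differed, with 931 in GPR41 KO replicate 2, where the neutrophil sum was lowest at 887, and 240 to 375 in the other KO arrays. The part of neutrophils in these differences was not tested.

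Markers of other cells were set beside the high array. T and NK cell markers, 14 of 15 with a probe set, summed to 2458 in GPR41 KO replicate 2 and to between 1083 and 1586 in the other arrays. Gzmb had 373 there and 69.5 to 153 elsewhere. Gzma accounted for 800.1 of that sum and had 105 and 115 in WT, 238 in GPR41 KO replicate 1, and 273 and 200.4 in GPR43 KO. Of the 14, 8 were highest in that array, against 14.2% of all genes, and Cd3e, Cd2, Cd4, Cd8a, Prf1 and Ncr1 were not. Only 4 of the 14 passed the filter on weak signals, Gzma among them, and Gzmb did not pass it. Neutrophil markers were highest there in 0 of 9, macrophage and monocyte markers in 0 of 12, and dendritic cell markers in 0 of 6. Plasmacytoid dendritic cell markers were highest there in 0 of 6, of which 3 passed the filter on weak signals. Siglech, at 21.2 to 74.0, Ccr9 and Pacsin1 did not pass it. Klk1, the strongest of the list, had 24645 to 36068 in every array. The count therefore says little about these cells. Of the 6 dendritic cell markers, 2 passed the filter. The part of T and NK cells in the high signals of the members was not tested.

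Other probe sets of the same genes gave another reading. The 43 members had 23 further probe sets over 17 genes, and GPR41 KO replicate 2 was the highest array in 17 of the 23. Among the 16 that reached a signal of 100 in some array it was highest in 13. A weak probe set can reach 100 through that array itself, as one of Rtp4 did (122 there, 29.0 to 54.7 elsewhere). The share over further probe sets of all genes is not given here. The exceptions were probe sets of Gbp2 (highest in WT replicate 2, 751), Xaf1 (GPR43 KO replicate 2, 369) and Epsti1 (GPR43 KO replicate 1, 117). Oas, Ifit, Gbp, Irgm and Trim30 genes have close paralogs, so a probe set can read more than the gene it is named for.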

How the data were processed

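Colon RNA of 6 samples was hybridised to Affymetrix mouse 430 2.0 arrays, 1 array per sample. The authors deposited MAS5 intensities, 1 value for each probe set, per the submitters' processing notes, and their trimmed mean is 500 in every array. MAS5 subtracts background, so ratios of weak signals are unstable. The sources used here do not give its version.

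Probe sets were named from GEO's platform annotation. Of 45101 probe sets, 34958 carried 1 symbol, 932 several and 9211 none. For each of 18193 genes the probe set with the highest mean was kept, and the 10916 genes with a mean log2(signal + 18) above the 40th percentile were tested with limma 3.58.1 in R 4.3.3 (lmFit, eBayes with intensity trend, 1 mean per group over the 6 arrays). Tests were two-sided, adjusted by Benjamini-Hochberg over all tested genes, with a threshold of 0.05, and ± is the SE of the fit. A weak gene high in 1 group is more likely to pass the filter. Tests are printed for called members, the member with the highest mean in each role, and Irf7, Ifit1, Cxcl9, Cxcl10, Gbp2 and Iigp1, and other pathway genes are named where called or where a count of 5 or fewer holds them, or as the member of a list with the highest mean. Gzmb, Ifna9, Ifnb1, Ifng and the further T and NK cell markers were chosen after their values were seen. Simulated data with known changes were used to test the fit. The members, classes and lists were chosen with earlier results of these data known, so no test of a list is given. Alternatives changed the pseudocount, normalization, filter, probe sets, model and arrays used.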

Additional observations from a re-analysis of the deposited data

How the results depend on the processing

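Irf7 was called in GPR41 KO against WT under all alternatives but 1: without the intensity trend its limma adjusted p was 0.0668 and 0 members were called. Over its other alternatives the adjusted p ran from 0.000813 to 0.0358. With median centring 2 were called, Irf7 and Irf1 (0.71, limma adjusted p = 0.0280). Leaving out 1 array at a time gave 1 to 14 called members in GPR41 KO against WT, 14 of them without GPR41 KO replicate 1, 0 to 1 in GPR43 KO against WT (Oasl2, without GPR41 KO replicate 1) and 0 to 3 between the KO groups (Ddx60, Lgals9 and Oasl2, also without GPR41 KO replicate 1). A lone array is then assumed to vary like the other groups. Without GPR41 KO replicate 1, the lone GPR41 KO array is the one already singled out as high in the members. The counts of called members in comparisons with it therefore cannot show a genotype difference. Differences in GPR41 KO that changed sign ranged from -0.061 to 0.63 for Epsti1, -0.26 to 0.79 for Gbp2, -0.62 to 2.56 for Ifit1, -0.43 to 1.05 for Iigp1, -0.33 to 1.23 for Psmb8 and -0.91 to 2.62 for Usp18, each negative without GPR41 KO replicate 2 and Iigp1 also without WT replicate 1. In GPR43 KO they ranged from -2.21 to 0.56 for Cxcl9, -0.76 to 0.077 for Ifit1, -0.32 to 0.21 for Igtp, -0.14 to 0.012 for Lgals3bp and -0.23 to 0.12 for Oas1a, each positive without WT replicate 2, Igtp and Lgals3bp also without GPR43 KO replicate 2 and Oas1a also without GPR43 KO replicate 1. Averaging probe sets turned GPR43 KO against WT to -0.022 for Epsti1 and 0.23 for Psmb8. Over all genes, the 541 and 432 calls in GPR41 KO and GPR43 KO became 335 and 280 with a filter at the 60th percentile, and 360 and 217 without the trend. Leaving out arrays gave 195 (without GPR41 KO replicate 1) to 892 (without WT replicate 1) and 129 (without GPR43 KO replicate 2) to 761 (without WT replicate 1). Median centring moved the share of higher calls in GPR41 KO from 37.3% to 48.2%, the higher filter to 49.3%, and no trend to 24.7%. The cause of these moves was not tested. The count of 42 members highest in GPR41 KO replicate 2 was 42 under 5 alternatives chosen after seeing the data, and the 24 at least 1 above every other array, Mx2 included, became 22 to 25. A change of pseudocount keeps the order of the arrays, so alternatives of that kind could not alter the 42.

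The replicate block changed no call among the members, with 1, 0 and 0 called and an adjusted p of 0.0236 for Irf7, and left 401 and 295 calls over all genes. Deviations of arrays with the same replicate number correlated at 0.11 for WT and GPR41 KO, -0.27 for WT and GPR43 KO and -0.054 for the KO groups, so the numbers are not shown to pair arrays. The 2 arrays per group and background in weak signals limit the precision.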
